A study of Mus musculus with 12 samples.

Results

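The unfolded protein response genes described here are 10 genes: Ern1, Eif2ak3, Atf6, Xbp1, Atf4, Ddit3, Hspa5, Herpud1, Dnajb9 and Sdf2l1. They were picked by gene symbol from the 27179 genes of the count table, and all 10 are among the 13415 genes with enough reads to be tested. Splenic conventional dendritic cells of types 1 and 2 (cDC1 and cDC2) were sorted from female C57/BL6 mice and sequenced as polyA RNA. The 4 groups, each of 3 libraries, are cDC1 and cDC2 labelled zfp366-/- (KO) and cDC1 and cDC2 labelled zfp366+/+ (WT). Zfp366 is the gene of DC-SCRIPT, which carries zinc fingers and is found in conventional dendritic cells. Each library came from a mouse pool, and each of the 6 pools gave 1 cDC1 and 1 cDC2 library. The labels give neither the age of the mice nor the number per pool, and name no cell type to which the loss of Zfp366 is limited. Cells were freed from the spleen with collagenase and DNAse, a step that all 4 groups share.

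The endoplasmic reticulum (ER) folds proteins bound for membranes and for secretion. When unfolded proteins build up there, sensors in its membrane start the unfolded protein response. IRE1 alpha, the product of Ern1, cuts Xbp1 mRNA so that an active transcription factor is made. PERK, the product of Eif2ak3, slows translation and favours ATF4 and, downstream of it, CHOP, the product of Ddit3. ATF6 moves to the Golgi, where cleavage frees a transcription factor. Together these factors drive genes for chaperones, for protein breakdown and for the secretory route. In dendritic cells the IRE1 and XBP1 branch is known to be active at steady state, above all in cDC1. Counts per gene show none of the steps that turn the sensors on: they do not separate cut from uncut Xbp1 mRNA, cleaved from whole ATF6 or phosphorylated from unphosphorylated PERK.

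The factors of this response bind short motifs near the start of their targets. RefSeq's promoter table (GRCm38.p6, from 250 bases before to 50 bases after the start) holds 9 of the 10 genes, the exception being Atf6. In the 9, both strands were searched for the ER stress element (CCAAT, 9 bases of any kind, then CCACG), for ERSE-II (ATTGG, 1 base, then CCACG), for the unfolded protein response element TGACGTGG and for the amino acid response element core TGATGNAA. The first was found in Hspa5 alone, while Herpud1 held ERSE-II and the amino acid response element core. The other 7 held none of the 4 motifs in this window. The ER stress element stands in 0.119% of the 32851 promoters of the table, ERSE-II in 0.0365%, TGACGTGG in 0.676% and TGATGNAA in 3.97%. No 2 motifs overlap in these genes. The 250 bases before the Hspa5 start (chr2:34771840-34772089, plus strand) are shown because Hspa5 was the member with the highest level; capitals mark the ER stress element.
Hspa5: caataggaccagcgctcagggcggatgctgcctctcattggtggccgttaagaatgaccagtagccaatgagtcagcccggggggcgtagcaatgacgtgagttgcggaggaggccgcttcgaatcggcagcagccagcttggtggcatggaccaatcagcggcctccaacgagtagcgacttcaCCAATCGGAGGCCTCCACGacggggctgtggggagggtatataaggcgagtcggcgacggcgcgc

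Among 26 other chaperones and folding enzymes of the ER, the table holds promoters of 23, and 7 of these hold the ER stress element, against 0.137% of all 27025 genes in the table. Their matches are shown with that of Hspa5 and with the ERSE-II of Herpud1, since the levels of these genes are compared below. Each is written on the strand of the motif, with 6 bases on either side of it and the fixed bases in capitals. The matches lie at chr2:34772019-34772049 for Hspa5, chr8:94386371-94386393 for Herpud1, chr8:84847069-84847099 for Calr, chr11:50325794-50325824 for Canx, chr15:88819514-88819544 for Creld2, chr14:118937821-118937851 for Dnajc3, chr13:12565676-12565706 for Ero1b, chr10:86705632-86705662 and chr10:86705527-86705557 for Hsp90b1, and chr12:17266485-17266515 for Pdia6. Those of Calr, Creld2 and Ero1b and the second of Hsp90b1 read on the strand opposite to the gene.
Hspa5: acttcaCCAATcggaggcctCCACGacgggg
Herpud1: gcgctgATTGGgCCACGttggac
Calr: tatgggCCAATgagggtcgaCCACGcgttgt
Canx: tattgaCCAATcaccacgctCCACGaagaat
Creld2: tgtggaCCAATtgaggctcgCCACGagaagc
Dnajc3: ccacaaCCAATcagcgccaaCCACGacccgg
Ero1b: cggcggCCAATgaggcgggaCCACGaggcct
Hsp90b1, first: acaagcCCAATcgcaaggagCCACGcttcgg
Hsp90b1, second: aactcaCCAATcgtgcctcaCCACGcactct
Pdia6: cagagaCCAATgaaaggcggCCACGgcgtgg

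Total counts ran from 11330503 to 36761685 reads per library. Zfp366 itself had 48.8, 48.4 and 45.4 CPM in KO cDC1, against 152, 89.2 and 67.5 CPM in WT cDC1, and 55.0, 80.6 and 65.1 CPM in KO cDC2, against 52.6, 62.4 and 57.4 CPM in WT cDC2. CPM are read counts divided by the TMM-scaled library size, the unit of all levels here unless another is named. Zfp366 was lower in KO cDC1 (log2 fold change -1.12, SE 0.27, adjusted p = 0.0326), a call lost without any 1 of the KO cDC1 libraries, WT cDC1 library 2 or KO cDC2 library 3 and in the 6 cDC1 libraries alone (adjusted p of up to 0.142), and it did not pass in cDC2. The summed level of 10 cDC1 markers was 7867 to 8695 CPM in KO cDC1, against 10839 to 11405 CPM in WT cDC1, and 1001 to 1399.9 CPM in KO cDC2, against 904 to 1062 CPM in WT cDC2. Among them Itgae alone was called, as lower in KO cDC1 (10.8 ± 0.63 CPM in KO cDC1, against 176 ± 40.2 CPM in WT cDC1, log2 fold change -4.02, adjusted p = 0.00296). The other 9 cDC1 markers did not pass. Of all 10, 2 had a log2 fold change above 0, with a median of -0.41 and a highest value of 0.60. The summed level of 10 cDC2 markers was 528 to 534 CPM in KO cDC1, against 66.9 to 86.9 CPM in WT cDC1, and 2055 to 2593 CPM in the cDC2 libraries. The libraries numbered 1 stood apart in all 4 groups: 10 cytosolic heat shock genes summed to 1806 to 3276 CPM in them and to 8799 to 21841 CPM in the other 8 libraries. The trend of level with gene length differed between libraries as well. Spearman's correlation of level (relative to all libraries) with length was 0.30, 0.41 and 0.32 in KO cDC1 libraries 1, 2 and 3, against 0.45, -0.24 and -0.34 in WT cDC1. In KO cDC2 it was 0.21, -0.23 and -0.20, against -0.33, -0.09 and -0.10 in WT cDC2. Each call among the 10 genes is therefore also given for libraries numbered 2 and 3 alone, and for the pair numbered 1 as a ratio with no test.

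Levels can be compared between genes only per length. On that scale (RPKM, from the deposited gene lengths) Hspa5, which encodes the main Hsp70 chaperone of the ER, had the highest mean of the 10 in 3 of the 4 groups, with 682 ± 91.9 in KO cDC1, 858 ± 40.9 in WT cDC1, 346 ± 58.8 in KO cDC2 and 287 ± 56.2 RPKM in WT cDC2 (SD, n = 3 each). Herpud1 had 389.9 ± 101 in KO cDC1, 283 ± 49.6 in WT cDC1, 317 ± 135 in KO cDC2 and 341 ± 78.2 RPKM in WT cDC2, and in cDC2 of either genotype it and Hspa5 did not differ beyond their spread. Sdf2l1 ranged from 141 to 451 RPKM over the 4 group means, below Herpud1 in all groups but WT cDC1, where it was above it. Then came Xbp1 with 56.4 to 130.1, Atf4 with 44.1 to 65.4 and Dnajb9 with 43.3 to 53.1 RPKM. Atf6 ranged from 15.3 to 43.9 RPKM. The sensors Eif2ak3 and Ern1 had 6.91 to 13.5 and 4.94 to 6.70 RPKM, and Ddit3 had 8.09 to 18.7 RPKM. From Xbp1 through Atf4 to Dnajb9, neighbours in this order overlapped within 1 SD in 3 of the 4 groups, KO cDC1 being the exception.

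**Figure D1:**
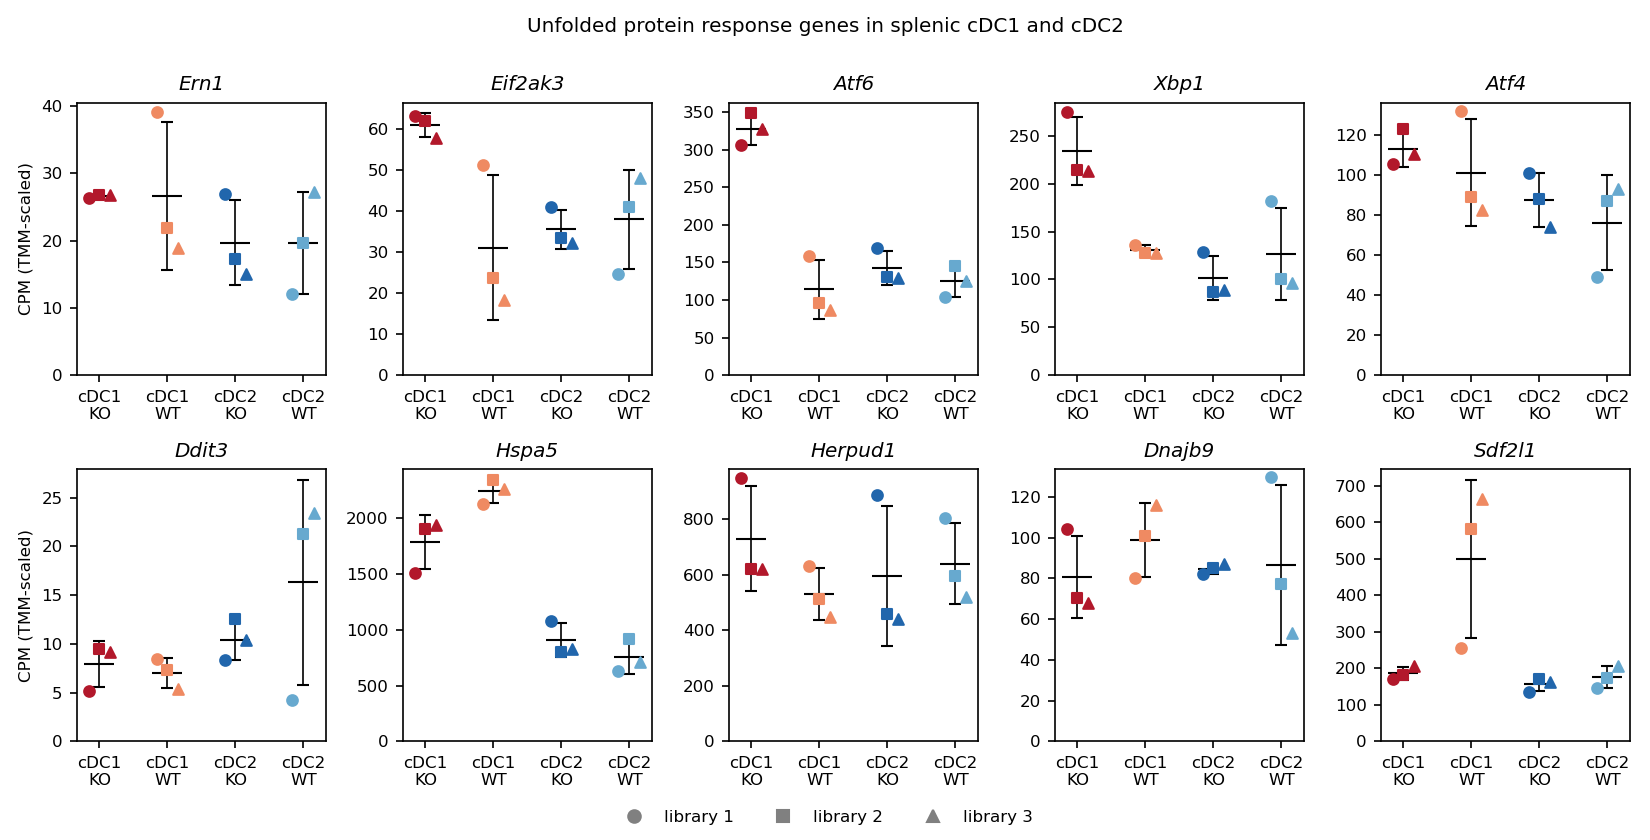
Level of each gene in every library, in CPM on a linear axis that starts at 0, for KO and WT cDC1 and for KO and WT cDC2. Symbols mark the library number, and black marks give the mean ± SD of 3 libraries. Atf6 stands at 306 to 349 CPM in KO cDC1 and at or below 169 CPM in the other 9 libraries, and Sdf2l1 stands at 255 to 664 CPM in WT cDC1 and at or below 206 CPM elsewhere.

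The first comparison asked how the genes differed between KO and WT cDC1. Atf6, the sensor that becomes a transcription factor, rose in KO cDC1, and Sdf2l1, an ER resident partner of folding complexes and a known target of ATF6 and XBP1, fell. The other 8 genes did not pass the test. So 2 of 10 were called, 1 higher and 1 lower, where 5.32% of all genes tested were called in either direction, 3.60% higher and 1.72% lower. The median log2 fold change of the 10 was 0.17, against a median near 0 for all genes. In bulk samples a change in RNA per cell and a change in the share of cells that carry it cannot be told apart.

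Atf6 (Entrez Gene 226641, chr1:170704457-170868585 on GRCm38) had 306, 349 and 327 CPM in KO cDC1, against 159, 96.7 and 86.8 CPM in WT cDC1. The KO libraries lay close together and all above the WT ones, of which library 1 was the highest. The log2 fold change was 1.52 (SE 0.25), a 2.87-fold difference, with an adjusted p of 0.00304 by edgeR's quasi-likelihood test. It was called under all 22 alternative settings, at 1.09 to 1.86. Within libraries 2 and 3 it was 1.86 (adjusted p = 4.9e-07), and in the pair numbered 1 the log2 ratio was 0.95. Atf6 is the longest of the 10, with 7463 bases, and the WT cDC1 libraries 2 and 3 were the ones low in long genes. With each library's length trend as an offset, its log2 fold change was 1.18 (adjusted p = 0.000887).

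Sdf2l1 (Entrez Gene 64136, chr16:17130138-17132383) went the other way, with 172, 181 and 206 CPM in KO cDC1, against 255, 581 and 664 CPM in WT cDC1. All 3 KO libraries were lower than each WT library, and WT library 1 was less than 1 SD of the WT group above the KO libraries. The log2 fold change was -1.42 (SE 0.30, adjusted p = 0.0166), so the level in KO was 0.373 of that in WT. Leaving out any 1 of the 3 KO libraries, or WT library 2 or 3, ended the call, as did a fit of the 6 cDC1 libraries alone (adjusted p of up to 0.0841). Within libraries 2 and 3 the change was -1.71 (adjusted p = 1.6e-06), and in the pair numbered 1 the log2 ratio was -0.57. Sdf2l1 is among the shortest of the 10, with 1108 bases, and with length offsets the change was -1.12 (adjusted p = 0.00382).

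Xbp1 and Eif2ak3 had higher means in KO cDC1 than in WT cDC1 without passing the test. Xbp1, the transcription factor whose mRNA IRE1 alpha cuts, had 275, 215 and 213 CPM in KO cDC1, against 136, 128 and 128 CPM in WT cDC1. Its log2 fold change was 0.84 (SE 0.26, adjusted p = 0.0929), and 8 of 22 alternatives called it, among them DESeq2 (adjusted p = 0.0414) and length offsets (0.0445). It was as large in the pair numbered 1 (log2 ratio 1.01) as within libraries 2 and 3 (0.72, adjusted p = 0.000141). Eif2ak3, the gene of the kinase PERK, had 63.2, 61.9 and 57.7 CPM in KO cDC1, against 51.2, 23.6 and 18.3 CPM in WT cDC1 (log2 fold change 0.97, SE 0.35, adjusted p = 0.150). Here WT library 1 came near the KO level: the log2 ratio was 0.30 in the pair numbered 1, and 1.49 within libraries 2 and 3 (adjusted p = 1.7e-05). Exons of Eif2ak3 share 485 bases with a transcript on the opposite strand, and the strand setting of the counts is not given in the sources used here.

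The remaining 6 genes did not pass in cDC1. Hspa5 had 1507, 1905 and 1939 CPM in KO cDC1, against 2130.0, 2342 and 2262 CPM in WT cDC1, a log2 fold change of -0.33 (SE 0.23, adjusted p = 0.475). Herpud1, which encodes an ER membrane protein that aids the breakdown of misfolded proteins, had 949, 621 and 618 CPM in KO cDC1, against 630.2, 510.3 and 448 CPM in WT cDC1, and these groups overlapped. Dnajb9, which encodes the ER co-chaperone ERdj4, had 104, 70.4 and 68.1 CPM in KO cDC1, against 80.0, 101 and 116 CPM in WT cDC1. In both genes library 1 stood apart from libraries 2 and 3 of its own group.

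Atf4, Ddit3 and Ern1 overlapped between KO and WT cDC1. Atf4, the transcription factor made when translation slows, had 106, 123 and 110.3 CPM in KO cDC1, against 132, 88.9 and 82.4 CPM in WT cDC1. Ddit3, the gene of the factor CHOP that is tied to cell death under stress, was read at 5.21, 9.48 and 9.13 CPM in KO cDC1, against 8.41, 7.35 and 5.38 CPM in WT cDC1, that is from 93 reads in the WT library 3 upward. Ern1 had 26.3, 26.8 and 26.9 CPM in KO cDC1, against 39.1, 21.9 and 18.8 CPM in WT cDC1. Its log2 fold change was 0.00 (SE 0.34), between group means of 26.7 and 26.6 CPM. In both Ern1 and Atf4, WT library 1 lay above all 3 KO libraries, while WT libraries 2 and 3 lay below them. Within libraries 2 and 3 alone, 7 of the 10 genes were called, 5 higher (Atf4, Atf6, Eif2ak3, Herpud1 and Xbp1) and 2 lower (Dnajb9 and Sdf2l1), but so were 6438 of all genes.

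The same comparison in cDC2 gave no call. None of the 10 genes passed edgeR's test there and none had an unadjusted p below 0.05; DESeq2 and limma-voom called none either. Among all genes tested 0% were called in cDC2, with 271 at an unadjusted p below 0.05. Atf6 had 169, 130.3 and 129 CPM in KO cDC2, against 104, 145 and 126 CPM in WT cDC2 (log2 fold change 0.19, SE 0.24). Sdf2l1 had 136, 170.4 and 162 CPM in KO cDC2, against 146, 174 and 206 CPM in WT cDC2 (-0.17, SE 0.30). Xbp1 had 128, 86.9 and 89.1 CPM in KO cDC2, against 182, 101 and 96.5 CPM in WT cDC2 (-0.32, SE 0.26). All 3 genes overlapped between the genotypes.

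Hspa5 was read at 1083, 804 and 831 CPM in KO cDC2, against 627, 914 and 716 CPM in WT cDC2. Eif2ak3 had 40.9, 33.4 and 32.2 CPM in KO cDC2, against 24.7, 41.0 and 48.1 CPM in WT cDC2, so its library 1 was the highest of the KO group and the lowest of the WT group. The same held for Ern1, at 26.9, 17.2 and 15.0 CPM in KO cDC2, against 12.1, 19.6 and 27.2 CPM in WT cDC2. In WT cDC2 Ddit3 had the widest spread of the 10 relative to its mean. It had 8.34, 12.6 and 10.4 CPM in KO cDC2, against 4.24, 21.2 and 23.4 CPM in WT cDC2. Its log2 fold change of -0.64 (SE 0.49, adjusted p = 1) became -0.96 (adjusted p = 0.0163) within libraries 2 and 3, and the log2 ratio was 0.97 in the pair numbered 1. Exons of Ddit3 share 68 bases with Mars on the opposite strand. Atf4, Herpud1 and Dnajb9 had log2 fold changes of 0.20, -0.11 and -0.03 in cDC2, each smaller than its SE.

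**Figure D2:**
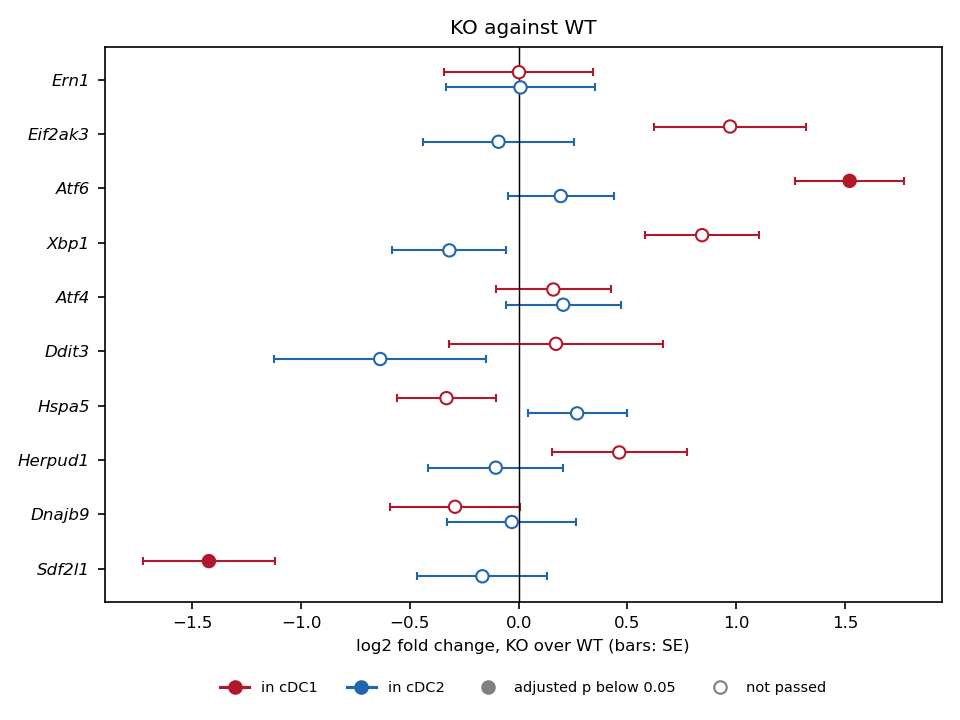
Log2 fold change of each gene, KO over WT, in cDC1 and in cDC2, with bars of 1 SE and filled points for an adjusted p below 0.05. Filled points stand at 1.52 for Atf6 and at -1.42 for Sdf2l1, both in cDC1, and every cDC2 point is open.

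Whether the genotype effect differed between the subsets was tested with the interaction, the effect in cDC1 minus that in cDC2. None of the 10 genes passed edgeR's test, where 1.42% of all genes did. Without adjustment 1282 of all 13415 genes had a p below 0.05, and 3 of the 10 did: Atf6 (1.33, SE 0.35, adjusted p = 0.0986), Xbp1 (1.16, SE 0.37, adjusted p = 0.212) and Sdf2l1 (-1.26, SE 0.42, adjusted p = 0.251). DESeq2 called Atf6 alone (1.28, adjusted p = 0.0229), beside 3.59% of all genes, and limma-voom called none. With length offsets Atf6 passed as well (1.17, adjusted p = 0.0201), beside 2.23% of all genes. The changes of Atf6 and Sdf2l1 are thus not shown by this test to be larger in cDC1 than in cDC2. Without WT cDC1 library 1, 3 of the 10 passed, Atf6, Eif2ak3 and Sdf2l1, beside 3.65% of all genes.

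The next comparison set cDC1 against cDC2 within the KO mice. Of the 10 genes 3 were higher in KO cDC1 and none was lower, where 16.9% of all genes were called, 8.45% higher and 8.43% lower. They were Atf6, Xbp1 and Hspa5. Atf6, at 306 to 349 CPM in KO cDC1, against 129 to 169 CPM in KO cDC2, was 1.20 higher on the log2 scale (SE 0.25, adjusted p = 0.00576). Xbp1 was at 213 to 275 CPM in KO cDC1, against 86.9 to 128 CPM in KO cDC2 (1.21, SE 0.27, adjusted p = 0.0082). Both calls held under all 24 alternatives, including the mouse pool as a block. Within libraries 2 and 3 they were 1.37 and 1.27, and in the pair numbered 1 the log2 ratios were 0.85 and 1.10.

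Hspa5 was at 1507 to 1939 CPM in KO cDC1, against 804 to 1083 CPM in KO cDC2 (0.98, SE 0.23, adjusted p = 0.0118). This call ended when cDC1 library 2 or 3 or cDC2 library 2 or 3 of the KO mice was left out (adjusted p of up to 0.0635). Its log2 ratio was 0.48 in the pair numbered 1, against 1.22 within libraries 2 and 3. Sdf2l1, at 172 to 206 CPM in KO cDC1, against 136 to 170.4 CPM in KO cDC2, did not pass (0.26, SE 0.30, adjusted p = 0.598). The other 6 did not pass either, with log2 fold changes from -0.39 for Ddit3 to 0.78 for Eif2ak3.

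In WT mice the genes that differed between cDC1 and cDC2 were partly others. Hspa5 and Sdf2l1 were higher in WT cDC1 and none was lower, where 21.2% of all genes were called, 10.4% higher and 10.9% lower. Hspa5 was at 2130.0 to 2342 CPM in WT cDC1, against 627 to 914 CPM in WT cDC2, a log2 fold change of 1.58 (SE 0.23, adjusted p = 0.000343). Sdf2l1 was at 255 to 664 CPM in WT cDC1, against 146 to 206 CPM in WT cDC2 (1.51, SE 0.31, adjusted p = 0.00343). Both were called under all 24 alternatives. Their log2 ratios in the pair numbered 1 were 1.77 and 0.80, against 1.51 and 1.73 within libraries 2 and 3.

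Atf6 and Xbp1 did not pass between the WT subsets, with log2 fold changes of -0.13 (SE 0.24) and 0.04 (SE 0.26). For Atf6 the WT cDC1 values of 86.8 to 159 CPM enclosed the WT cDC2 values of 104 to 145 CPM. Xbp1 had 128 to 136 CPM in WT cDC1, against 96.5 to 182 CPM in WT cDC2, where library 1 was the highest. Ddit3 had the lowest log2 fold change of the 10, -1.20 (SE 0.50, adjusted p = 0.110). For Ddit3 the pair numbered 1 went the opposite way, with a log2 ratio of 0.99, against -1.79 within libraries 2 and 3 (adjusted p = 3.6e-05). Whether a subset difference in KO mice differs from that in WT mice is the same test as the interaction given above, which no gene of the 10 passed in edgeR's fit and which DESeq2 and length offsets called for Atf6.

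**Figure D3:**
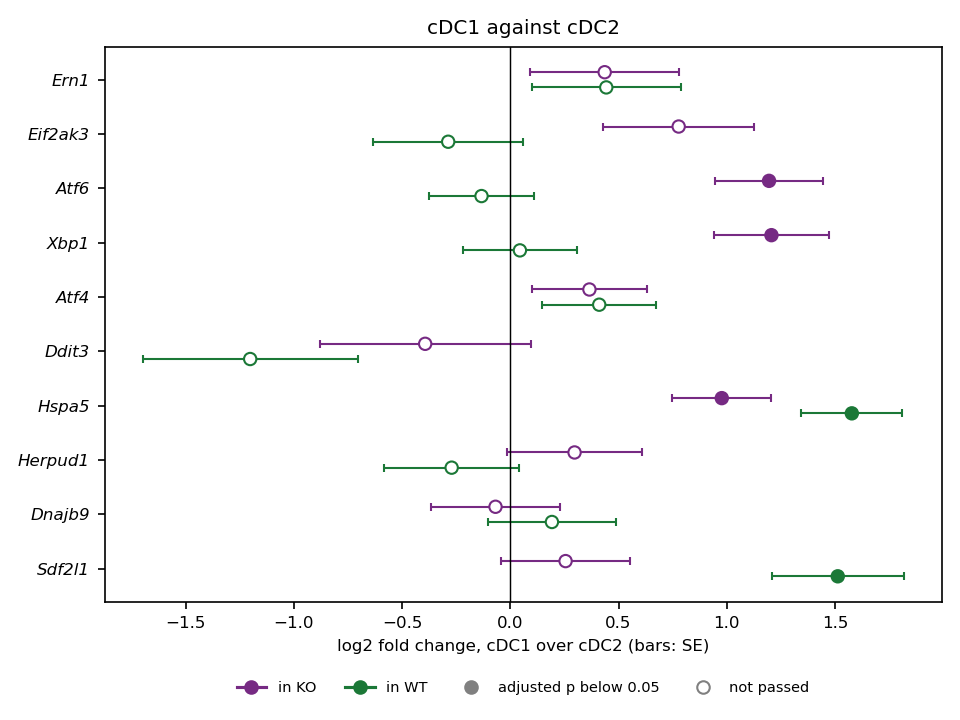
Log2 fold change of each gene, cDC1 over cDC2, in KO and in WT mice, with bars of 1 SE and filled points for an adjusted p below 0.05. In KO mice the filled points are Atf6 (1.20), Xbp1 (1.21) and Hspa5 (0.98), and in WT mice Hspa5 (1.58) and Sdf2l1 (1.51).

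Around the 10 genes, lists of other genes of the same route were read from the same fit. Of 25 ER chaperones and folding enzymes tested, 20 were higher in WT cDC1 than in WT cDC2 and none was lower, with a median log2 fold change of 1.26, against 0.02 for all genes. Over all genes 10.4% were higher there. In KO mice 12 were higher in cDC1 and none lower (median 0.69), where 8.45% of all genes were higher. Leaving out cDC1 library 2 or 3 or cDC2 library 2 or 3 of the KO mice lowered the KO count to 6 or 7. In these settings 8.85% to 9% of all genes were called in either direction. Pdia5, a disulfide isomerase, was far higher in cDC1, at 213 ± 13.5 CPM in KO cDC1, against 2.96 ± 0.65 CPM in KO cDC2, and at 283 ± 53.5 CPM in WT cDC1, against 4.58 ± 2.57 CPM in WT cDC2. In WT mice Pdia4 followed (207 ± 23.7 CPM in cDC1, against 47.5 ± 9.93 CPM in cDC2, log2 fold change 2.12), then Creld2 (2.07) and Pdia3, a partner of calreticulin (1.97). In KO mice Txndc5 (1.30), Pdia3 (1.20) and Ero1b, an oxidase that recharges disulfide isomerases (1.49), came after Pdia5. In WT mice all 7 chaperone genes with the ER stress element in their promoters were called, as were 10 of 15 without it. In KO mice these counts were 5 of 7 and 6 of 15. The 3 tested genes without an entry in the promoter table were all called in WT mice, and 1 of them was called in KO mice. Any link of the element to these calls was not tested.

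Between KO and WT cDC1, 22 of the 25 chaperone genes had values below 0, with a median of -0.59, and 2 passed as lower. These were Creld2, which fell to 48.6 ± 2.33 CPM in KO cDC1, against 124 ± 11.2 CPM in WT cDC1 (-1.36, SE 0.23, adjusted p = 0.00405), and Pdia4 (108 ± 7.08 CPM in KO cDC1, against 207 ± 23.7 CPM in WT cDC1, -0.94, adjusted p = 0.0251). The call of Pdia4 ended without any 1 of the cDC1 KO libraries or cDC1 WT library 2 or 3 (adjusted p of up to 0.123), while Creld2 kept its call under all 22 alternatives. The summed level of the list was 6387 to 6778 CPM in KO cDC1, against 8559 to 11168 CPM in WT cDC1, and 3607 to 3861 CPM in KO cDC2, against 3395 to 3699 CPM in WT cDC2. Within libraries 2 and 3, 18 of the 25 were lower and 2 higher in KO cDC1, where 47.8% of all genes were called. With length offsets 9 were lower and none higher (7.22% of all genes called), and without WT cDC1 library 1 the call was made for 12, of which 1 was higher (22.3% of all genes called). None passed between KO and WT cDC2 or in the interaction by edgeR. At an unadjusted p below 0.05 there were 0 and 9 of them, beside 271 and 1282 of all 13415 genes. DESeq2 called 0 and 2, beside 0% and 3.59% of all genes, and limma-voom called none.

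**Figure D4:**
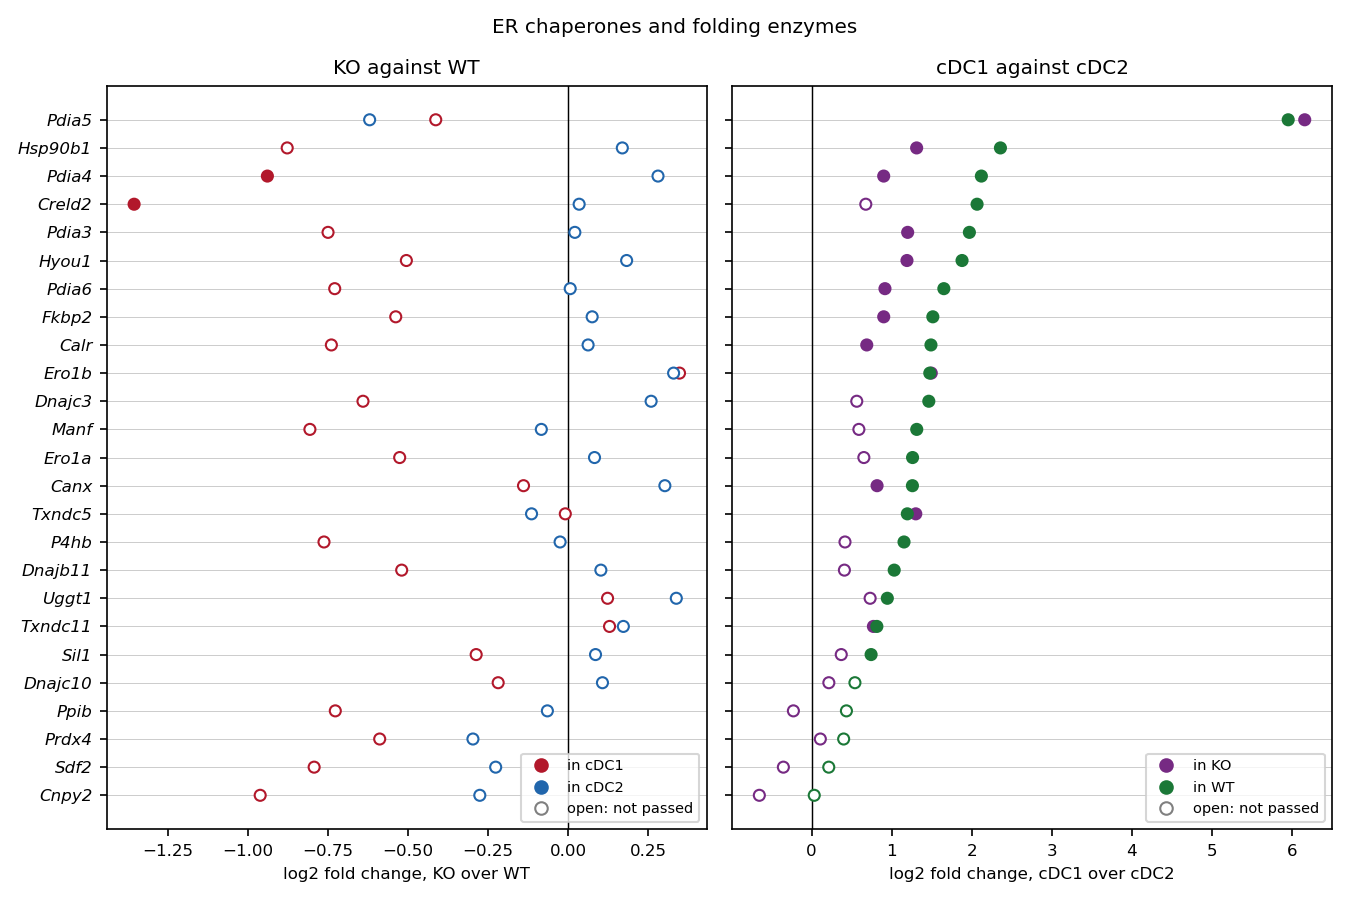
Log2 fold changes of 25 ER chaperones and folding enzymes, KO over WT on the left (cDC1 and cDC2) and cDC1 over cDC2 on the right (KO and WT), sorted by the value in WT; filled points have an adjusted p below 0.05. On the left 2 points are filled, Creld2 (-1.36) and Pdia4 (-0.94) in cDC1, and on the right 12 are filled in KO and 20 in WT, led by Pdia5.

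Genes that carry proteins into and out of the ER, and those that break down misfolded ones, were counted the same way. Of 21 genes of ER translocation and export, 8 were higher in WT cDC1 than in WT cDC2 and 4 in KO cDC1 than in KO cDC2, none lower, where 10.4% and 8.45% of all genes were higher. Sec24d, a coat protein of vesicles that leave the ER, was at 33.5 ± 2.44 CPM in KO cDC1, against 5.86 ± 3.90 CPM in KO cDC2, and at 53.0 ± 6.70 CPM in WT cDC1, against 5.68 ± 1.70 CPM in WT cDC2. Ssr3 (1.31), Sec63 (1.46) and Sec61a1 (1.16), parts of the translocation channel or its partners, were also higher in WT cDC1. In KO mice Sec61a1 (0.98) kept its call with the mouse pool as a block, while Ssr3 (0.86, adjusted p = 0.0523) and Kdelr2 (0.56, adjusted p = 0.115) lost it. The count was then 2, beside 11.5% of all genes called in either direction. Leaving out KO cDC1 library 1 or KO cDC2 library 2 or 3 ended the call of Sec61a1 in KO mice (adjusted p of up to 0.0741). Between KO and WT cDC1 none passed, with a median of -0.55. Unadjusted, 9 had a p below 0.05, beside 2526 of all 13415 genes. DESeq2 called 2, beside 9.85% of all genes, and limma-voom none, beside 5.4%. Within libraries 2 and 3, 15 were called, 1 of them higher, beside 47.8% of all genes, and without WT cDC1 library 1, 11 were called, all lower, beside 22.3%.

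Of 20 genes of ER-associated degradation, 5 were higher and none lower in WT cDC1 than in WT cDC2. Of all genes 10.4% were higher there, and 21.2% were called in either direction. By p-value the first were Derl3 (6.39 ± 2.47 CPM in WT cDC1, against 0.91 ± 0.71 CPM in WT cDC2) and the ATPase gene Vcp (1.13). Selenos (0.86) and Ubxn4 (0.83) came next, the last not with the mouse pool as a block (adjusted p = 0.102). Without WT cDC2 library 2 or 3 the count was 2, beside 17.7% and 19.1% of all genes called in either direction. In KO mice, where 8.45% of all genes were higher, Vcp alone of the 20 was (0.89, adjusted p = 0.0491), a call that 10 of 24 alternatives ended, among them the loss of any 1 KO cDC1 library, of library 2 or 3 of KO or WT cDC2 or of WT cDC1 library 2 (adjusted p of up to 0.195). Between KO and WT cDC1 Selenos, an ER membrane protein of this route, was lower (44.3 ± 2.72 CPM in KO cDC1, against 90.9 ± 23.1 CPM in WT cDC1, -1.04, adjusted p = 0.0166). Leaving out any 1 KO cDC1 library or WT cDC1 library 2 or 3 ended it (adjusted p of up to 0.0879). Without WT cDC1 library 1, 6 of the 20 were called, 1 of them higher, beside 22.3% of all genes.

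The list of targets and regulators of the integrated stress response, the route by which PERK and 3 other kinases slow translation and raise ATF4, did not move one way. Of 24 tested, 2 were higher and 1 was lower in KO cDC1 than in WT cDC1, with a median of -0.01, where 3.60% of all genes were higher and 1.72% lower. In libraries 2 and 3 alone, 9 were higher and 4 lower in cDC1, beside 47.8% of all genes called, and 7 were called in cDC2, beside 7.72%. Ppp1r15a, which encodes the subunit that reverses the action of these kinases, was at 581 ± 26.5 CPM in KO cDC1, against 213 ± 104 CPM in WT cDC1 (1.45, SE 0.29, adjusted p = 0.0111). Its call ended without WT library 2 and in a fit of the 6 cDC1 libraries alone (adjusted p of up to 0.0770). Sesn2, a stress-induced inhibitor of mTORC1, was at 76.3 ± 2.26 CPM in KO cDC1, against 34.3 ± 17.5 CPM in WT cDC1 (1.15, adjusted p = 0.0419), and 10 of 22 alternatives ended the call, among them the loss of any 1 KO cDC1 library or of library 2 or 3 of any other group (adjusted p of up to 0.197). Asns, the asparagine synthetase gene and a target of ATF4, had 0.23 ± 0.03 CPM in KO cDC1, against 4.75 ± 1.06 CPM in WT cDC1 (-4.36, SE 0.69, adjusted p = 0.00234) and was called under all 22 alternatives. Immediate early genes, 12 in number, summed to 23197 to 24317 CPM in KO cDC1, against 11043 to 12642 CPM in WT cDC1. Their part in the rise of Ppp1r15a was not tested. The count for this list was 1 without WT cDC1 library 2, 6 without WT cDC1 library 1 and 5 without WT cDC2 library 1. Of all genes 2.32%, 22.3% and 6.83% were called in these settings.

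Between the subsets this list split. In WT mice 6 of 24 were higher and 5 lower in cDC1, where 10.4% of all genes were higher and 10.9% lower. By p-value the first of the lower ones were Ddit4 (6.12 ± 3.38 CPM in WT cDC1, against 65.5 ± 29.4 CPM in WT cDC2), Cebpb (-2.66) and Ppp1r15a (-1.21), and the first of the higher ones was Aars (1.04), a tRNA synthetase gene. In KO mice, where 8.45% of all genes were higher and 8.43% lower, 5 were higher in cDC1, among them Chac1 (2.03), Aars (0.83) and Eif2ak1 (0.93), and Cebpb was lower (-2.52). With the mouse pool as a block Aars did not pass in KO mice (adjusted p = 0.0554). Leaving out library 2 of WT cDC1 or of WT cDC2 left 6 calls in WT mice, beside 14.9% and 17.7% of all genes. Leaving out KO cDC1 library 2 or KO cDC2 library 2 or 3 left 2 in KO mice, beside 8.85% to 8.91% of all genes.

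Of 15 other regulators of the response none passed between KO and WT cDC1 or cDC2, where 5.32% and 0% of all genes did. Unadjusted, 1 and 0 had a p below 0.05, beside 2526 and 271 of all 13415 genes. DESeq2 and limma-voom called none, beside 9.85% and 5.4% of all genes in cDC1 and 0% in cDC2. Without WT cDC1 library 1, 4 were called in cDC1, beside 22.3% of all genes. Between the subsets Rtcb, the ligase that joins cut Xbp1 mRNA, was at 262 ± 5.50 CPM in KO cDC1, against 139 ± 11.1 CPM in KO cDC2, and at 363 ± 82.7 CPM in WT cDC1, against 148 ± 32.6 CPM in WT cDC2. Traf2, an adaptor that binds IRE1 alpha, was lower in cDC1 than in cDC2, at 34.9 ± 0.93 CPM in KO cDC1, against 51.7 ± 4.42 CPM in KO cDC2, and at 28.8 ± 1.91 CPM in WT cDC1, against 55.9 ± 1.38 CPM in WT cDC2. Bak1 was higher in KO cDC1 (0.70). With the mouse pool as a block Rtcb and Traf2 kept their calls in WT mice, and in KO mice Rtcb, Traf2 and Bak1 lost them (adjusted p = 0.0673, 0.0938 and 0.0776).

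Plasma cells, whose secretory load rests on XBP1, were looked for by 10 marker genes. The markers summed to 307 to 349 CPM in KO cDC1, against 274 to 368 CPM in WT cDC1, and to 320 to 388 CPM in KO cDC2, against 319 to 337 CPM in WT cDC2, most of it Ighm. The defining markers Sdc1 and Tnfrsf17 were at or below 0.36 and 0.07 CPM in every group mean, and Tnfrsf17 was at 0 in WT cDC2. Other markers were read at higher levels. Jchain had means of 7.64 CPM in KO cDC1, against 14.3 CPM in WT cDC1, and 48.6 CPM in KO cDC2, against 30.8 CPM in WT cDC2. For Igkc these means were 12.7, 16.8, 48.6 and 44.4 CPM. Derl3, named above, is on this marker list as well. Of 8 plasma cell markers tested, 1 was called between KO and WT cDC1, where 5.32% of all genes were. It was Prdm1, the gene of the repressor Blimp-1, which was at 26.6 ± 3.13 CPM in KO cDC1, against 1.09 ± 1.02 CPM in WT cDC1 (4.60, SE 0.55, adjusted p = 0.00036). The other 7 did not pass, and Prdm1 alone had a log2 fold change above 0. The median of the 8 was -0.65, with a lowest value of -1.74. Of the 10 cDC2 markers given above, 8 were called higher in KO cDC1, where 3.60% of all genes were. Of 10 monocyte markers 2 were called higher, among them Ccr2 (525 ± 87.1 CPM in KO cDC1, against 69.4 ± 38.9 CPM in WT cDC1, 2.92, adjusted p = 0.0180), a call lost without KO cDC1 library 1 or WT cDC1 library 2 or 3 (adjusted p of up to 0.0994). The other 8 monocyte markers did not pass. Of all 10, 6 had a log2 fold change above 0, with a median of 0.28 and a lowest value of -0.47. The monocyte markers, Ccr2 included, summed to 1272 to 1452 CPM in KO cDC1, against 555 to 610.5 CPM in WT cDC1. The part of these markers in the values of the 10 genes was not tested.

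For each of the 10, the genes with the most similar profile were taken by the smallest root mean square difference of log2 CPM, each gene centred on its own mean, over the 12 libraries and among 8777 well-read genes. Closest to Atf6 were Ehd4 (0.13), Dennd4c (0.16) and Nup210 (0.23), where the SD of Atf6 itself was 0.69. Closest to Sdf2l1 (SD 0.74) were Prkra (0.09), Creg1 (0.16) and Armc8 (0.18), and to Hspa5 (SD 0.71) Havcr2 (0.14), Ralb (0.17) and Nucb1 (0.17). Xbp1 was nearest to Sft2d2, B4galt4 and Casp2, Eif2ak3 to Alcam, Zbtb34 and Plekhm3, and Ern1 to Usp47, N4bp2 and Gm3141. For Atf4 they were Iws1, Slc38a10 and Arhgap30, for Ddit3 Arrdc2, Dclre1c and Tspyl2, for Herpud1 Tbcel, Ccnd3 and Pip4k2c, and for Dnajb9 Eif6, Aar2 and Mfsd14b. None of the 30 is a member of the lists used here, and the likeness includes what the libraries share by number and by gene length.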

How the data were processed

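The values are whole-number read counts per gene of 12 libraries, deposited by the authors as 1 table with gene lengths. Per the submitters' processing notes, featureCounts and GRCm38 (mm10) were used; versions, annotation and strand setting are not given in the sources used here. The 12 single-library files hold the same counts. Total counts ran from 11330503 to 36761685, and the median SE of a genotype log2 fold change was 0.33. Groups come from the labels, which do not say that pools are independent litters or days, so p-values measure the spread between these libraries.

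Gene symbols came from RefSeq by Entrez Gene ID for 25275 of 27179 genes. Counts were scaled by TMM and tested with edgeR 4.0.16 (robust quasi-likelihood, 4 group means, R 4.3.3), on 13415 genes kept by a count minimum of 10, with Benjamini-Hochberg adjustment over all of them; a call is an adjusted p below 0.05. The step was tested on simulated counts, which held neither the shift of the libraries numbered 1 nor the trends with gene length. Alternatives were RLE scaling, DESeq2 1.42.0, limma-voom 3.58.1, no filter, each library left out, subsets of libraries, blocks and length offsets (a lowess trend per library). The text names all 10 genes, Zfp366, up to 4 called genes per list and comparison by smallest p, and the 3 nearest profiles among genes whose log2 CPM averaged 3 or more. Members and lists were chosen with earlier results of these data known.

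Library numbers do not pair KO with WT. The labels join the cDC1 and cDC2 library of each mouse pool, taken from the same animals; their deviations from the group means correlated at 0.26, 0.14 and 0.14 in KO and at -0.20, -0.11 and -0.07 in WT.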

Additional observations from a re-analysis of the deposited data

Results flagged for a closer look

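Prdm1, a plasma cell marker that is not among the 10 genes, is listed because its genotype effect differed between the subsets: the effect in cDC1 minus that in cDC2 was 4.23 on the log2 scale (SE 0.70, adjusted p = 0.00846 by edgeR's interaction test), and it passed under all 23 alternatives. Its level was 26.6 ± 3.13 CPM in KO cDC1, against 1.09 ± 1.02 CPM in WT cDC1, and 7.18 ± 1.48 CPM in KO cDC2, against 5.48 ± 1.93 CPM in WT cDC2 (SD, n = 3 each). By edgeR's test Prdm1 was lower in WT cDC1 than in WT cDC2 (adjusted p = 0.00617). It was higher in KO cDC1 than in KO cDC2 (adjusted p = 0.0165). Of 24 alternatives, 23 and 20 called it in these comparisons. Of the 8 plasma cell markers tested, Prdm1 alone had a log2 fold change above 0 between KO and WT cDC1.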

How the results depend on the processing

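Of the 10 genes, 2 were called between KO and WT cDC1, 0 in cDC2, 0 in the interaction, 3 between KO cDC1 and KO cDC2 and 2 between WT cDC1 and WT cDC2. Libraries numbered 2 and 3 only gave 7, 1, 9, 7 and 7, and with length offsets 9, 2, 8, 8 and 6. In the interaction DESeq2 and length offsets gave 1 each, the mouse pool block with length offsets 1 and the replicate block with length offsets 3. Leaving out 1 library gave 1 to 3, 0 to 0, 0 to 3, 2 to 4 and 2 to 3. Over all genes the counts were 714, 0, 190, 2264 and 2846. Libraries 2 and 3 only gave 6438, 1039, 5157, 6620 and 6391, and with length offsets 5173, 1143, 3781, 6084 and 6419. DESeq2 gave 1318 in cDC1 and 480 in the interaction, where length offsets gave 299, the replicate block with length offsets 301 and the mouse pool block 116. A fit of 6 libraries gave 4172 for KO and 1537 for WT subsets. Leaving out 1 library gave 318 to 3052, 0 to 0, 110 to 501, 1209 to 3382 and 2049 to 3266; the highest in cDC1, 3052, came without WT cDC1 library 1. In libraries 2 and 3 the interaction of Ern1 was 0.90 (adjusted p = 0.0162), against -0.01, and that of Atf4 0.57 (0.0225), or 0.87 with length offsets (0.00349), against -0.05. In the same settings the marker Ccr2 was 0.54 and 0.57 in WT cDC1 over WT cDC2, against -0.12. The cause was not tested.

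Between genotypes, equal replicate numbers are only a shared number, and no pairing follows from them: their deviations correlated at 0.02, -0.07 and 0.11 in cDC1 and -0.05, -0.05 and -0.06 in cDC2, and 2 of 12 libraries correlated best with their own number. The replicate block gave 3, 0, 0, 3 and 2 calls among the 10 genes and 733, 0, 193, 2430 and 3002 over all genes. Depth limits Ddit3 most, at 93 to 457 reads per library.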

Other observations

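Apart from Xbp1, IRE1 alpha is known to cut a few other mRNAs of the ER, and 5 of 7 reported substrates had enough reads to be tested. None passed between KO and WT in cDC1 or cDC2 by edgeR, where 5.32% and 0% of all genes did. Unadjusted, 1 and 0 of them had a p below 0.05, beside 2526 and 271 of all 13415 genes. Their summed level was 1379 to 1575 CPM in KO cDC1, against 919 to 1404 CPM in WT cDC1, and 1359 to 1781 CPM in KO cDC2, against 1157 to 1582 CPM in WT cDC2. Tapbp, which encodes tapasin of the peptide loading complex, was higher in cDC1 than in cDC2, at 528 ± 53.1 CPM in KO cDC1, against 309 ± 94.3 CPM in KO cDC2 (log2 fold change 0.77, adjusted p = 0.0480), and at 474 ± 83.3 CPM in WT cDC1, against 238 ± 34.0 CPM in WT cDC2 (1.00, adjusted p = 0.0112). The call in KO mice ended under 10 of 24 alternatives, among them the loss of any 1 KO cDC1 library. Hgsnat, a lysosomal enzyme gene, was lower in WT cDC1, at 19.6 ± 2.45 CPM, against 38.6 ± 10.1 CPM in WT cDC2 (-0.98, adjusted p = 0.0121). Of the 5 substrates, 1 was thus called between the subsets in KO mice and 2 in WT mice. Among all genes 16.9% and 21.2% were called there.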
